A study of Mus musculus with 20 samples.

Results

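Cystatin M/E, its target proteases and the epidermal transglutaminases were followed as 8 genes of 51123 measured in mouse skin: the inhibitor genes Cst6 (ENSMUSG00000024846) and Spink5 (ENSMUSG00000055561), the protease genes Ctsl (ENSMUSG00000021477), Lgmn (ENSMUSG00000021190) and St14 (ENSMUSG00000031995), and the transglutaminase genes Tgm1 (ENSMUSG00000022218), Tgm3 (ENSMUSG00000027401) and Tgm5 (ENSMUSG00000053675). Cst6 was chosen by its measured difference between 2 groups of carcinomas, and the other 7 genes by their known place around it, with earlier results of these data in view. RNA was sequenced in bulk from tdTomato-positive cells sorted from dissociated skin of 7 groups of mice. Mice aged 100 to 120 days gave the young epidermis, with 3 libraries per genotype: wild type (WT young), K14cre;Wwoxfl/fl (WKO young), K14cre;p53fl/fl (PKO young) and K14cre;Wwoxfl/fl;p53fl/fl (DKO young). Old epidermis came from wild-type mice of at least 400 days (old WT, n = 2). Cutaneous squamous cell carcinomas (cSCC) that had formed spontaneously came from K14cre;p53fl/fl mice (PKO cSCC, n = 3) and from K14cre;Wwoxfl/fl;p53fl/fl mice (DKO cSCC, n = 3), whose ages the labels do not give. K14cre places Cre recombinase under the keratin 14 promoter, which is active in basal keratinocytes. The labels call the samples biological replicates, and they do not say whether the wild-type mice carried K14cre or which allele held the reporter.

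The outer layer of the epidermis is built by cornification, in which keratinocytes cross-link proteins beneath their membrane into a cornified envelope. Transglutaminases make those cross-links. Cystatin M/E, the secreted product of Cst6, inhibits the lysosomal cysteine proteases cathepsin L (Ctsl) and legumain (Lgmn), and cathepsin L can process the transglutaminase encoded by Tgm3. Mice without Cst6 are known for a severe ichthyosis. A second arm runs on serine proteases: matriptase (St14) acts at the cell surface, and LEKTI, the product of Spink5, inhibits the kallikrein-related peptidases that cut the junctions between cornified cells.

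Among the transglutaminases, Tgm3 was called higher in the carcinomas of both genotypes than in young epidermis of the same genotype. Tgm5 and Tgm1 were called higher in DKO than in WT young epidermis. The limits of these calls are given below. The sequences upstream of the Tgm3 and Tgm5 starts are shown. They are the 250 bases before each RefSeq gene start on the build GRCm38.p6, 5′ to 3′ on the gene's strand, at chr2:130012090-130012339 (plus strand) for Tgm3 and chr2:121085842-121086091 (minus strand) for Tgm5. Capitals mark a TATA box (TATAAA), which a script found 28 bases before the Tgm3 start.
Tgm3: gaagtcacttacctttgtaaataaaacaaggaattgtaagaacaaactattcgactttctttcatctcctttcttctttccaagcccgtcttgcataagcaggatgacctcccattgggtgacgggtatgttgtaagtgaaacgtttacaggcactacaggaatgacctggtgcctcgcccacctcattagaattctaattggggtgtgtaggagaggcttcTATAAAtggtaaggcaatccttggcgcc
Tgm5: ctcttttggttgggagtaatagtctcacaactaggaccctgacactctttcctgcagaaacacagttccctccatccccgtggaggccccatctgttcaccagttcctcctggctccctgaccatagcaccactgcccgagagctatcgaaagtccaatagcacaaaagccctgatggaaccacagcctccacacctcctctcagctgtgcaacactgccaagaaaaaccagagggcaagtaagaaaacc
The RefSeq table held 7 such windows for 5 of the 8 genes (Ctsl, Lgmn, Tgm1, Tgm3 and Tgm5), and 4 motifs were searched on both strands. TATAAA was found in 2 of the 7 windows, those of Tgm3 and of 1 Lgmn start, against 12.37% of all 32851 windows of that length. The E-box CACGTG was found in 2 of 7, at Ctsl and the same Lgmn start, where the motifs do not overlap, against 6.021% of all windows. The bases just after that Lgmn start were found in 0 of 3 annotated Lgmn transcripts. For each other window they were found in at least 1 transcript of its gene, so that start is the least certain. The AP-1 motif TGANTCA and the AP-2 motif GCCNNNGGC were in none of the 7, against 6.749% and 13.73% of all windows.

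Several libraries stand apart. Trp53, which encodes p53, was 31.0 to 40.1 CPM (counts scaled to a common library size) in WT young, and it remained at 21.4 and 20.4 CPM in the libraries labelled PKO young 2 and 3, at 20.5 in the library labelled DKO young 3 and at 45.9 in the library labelled DKO cSCC 3. Wwox was 7.11 CPM in the library labelled DKO young 3, against 8.75 to 10.1 in WT young and 0.918 and 0.928 in the other DKO young libraries. These 4 libraries go against their labels in Trp53, and the library labelled DKO young 3 also in Wwox. Wwox in the library labelled DKO cSCC 3 was 1.89 CPM, which goes with its label. Trp53 in the libraries labelled PKO young 2, PKO young 3 and DKO young 3 lay below every WT young library. Fibroblast markers (7 genes) came to 2335, 1916 and 2614 CPM in those libraries, in that order, and to at most 1552.5 CPM in any other. They were 438 CPM in the tumour library with 45.9 CPM of Trp53. That tumour library was highest in endothelial markers (6 genes), at 296 CPM, with at most 89.7 elsewhere. The reason for the Trp53 and Wwox levels was not tested, nor was the part of fibroblasts or endothelial cells in them. Basal keratinocyte markers (7 genes, led by Krt5 and Krt14, none at 0 in any library) had a total of 1584 to 2777 CPM in each WT young library, 2944 in the library labelled PKO young 3 and 3060 in old WT 2, and to 9252 to 29407 CPM in the other 15 libraries. The total of 9 T cell markers was 1587 to 2048 CPM in WT young, 3660 in the library labelled PKO young 3 and at most 905 elsewhere. Erythrocyte markers (5 genes) came to 829 to 3487 CPM in WT young and at most 233 elsewhere. Melanocyte markers (5 genes) came to 318 to 439 CPM in WT young, 517 in the library labelled DKO cSCC 3 and at most 157 elsewhere. Xist was above 100 CPM in 3 of 3 libraries of WKO, PKO and DKO young each, 2 of 3 WT young and 2 of 2 old WT, but in 0 of 3 PKO cSCC and 1 of 3 DKO cSCC, so sex moves with every tumour comparison below, and its part was not tested. Library totals ran from 11930153 to 17199262 counts, and the counts of the 8 genes from 36 to 7926.

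Cst6 had the widest range of the 8 genes, from 2.54 CPM in PKO cSCC 1 to 379 CPM in the library labelled DKO cSCC 3, a ratio of 149. In young epidermis it was 5.90, 15.7 and 12.2 CPM in WT libraries 1, 2 and 3, and 58.6, 130.2 and 77.5 CPM in WKO. It was 94.4, 86.8 and 35.1 CPM in PKO and 175 (library 1), 42.6 (library 2) and 92.5 CPM (the library labelled DKO young 3) in DKO. Every one of these 9 knockout libraries lay above every WT young library, and the 3 knockout groups overlapped one another. Old WT epidermis had 39.8 and 25.0 CPM. The carcinomas lay at both ends: PKO cSCC had 2.54, 2.89 and 7.85 CPM, and DKO cSCC had 127, 125 and 379 CPM. The means were 4.43 ± 2.97 CPM (SD, n = 3) in PKO cSCC and 210.1 ± 146 (n = 3) in DKO cSCC. This is the contrast that chose the gene, so its fitted log2 fold change of 5.50 (SE 0.69), or 45.1-fold, is a description with no test. Ordered by group mean, PKO cSCC was lowest, then WT young, old WT, PKO young, WKO young, DKO young and DKO cSCC; of neighbours in that order, only WT young and old WT had libraries that did not overlap.

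Spink5, which encodes the kallikrein inhibitor LEKTI, was also low in WT young, at 6.89, 12.2 and 8.75 CPM. It stood at 112, 77.1 and 148 CPM in WKO young and at 61.5, 159.5 and 19.2 CPM in PKO young. DKO young held the highest levels of the series, at 395, 259.5 and 177.5 CPM, all above every other library. Old WT had 67.0 and 44.4 CPM, PKO cSCC 8.69, 15.0 and 39.0, and DKO cSCC 21.4, 36.8 and, in the library labelled DKO cSCC 3, 147.5. The tumour groups overlapped each other for Spink5, with a log2 difference of 1.63 (SE 0.78) between DKO and PKO cSCC, again given with no test; it was 2.45 without PKO cSCC 3 and 0.47 without the library labelled DKO cSCC 3.

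**Figure D1:**
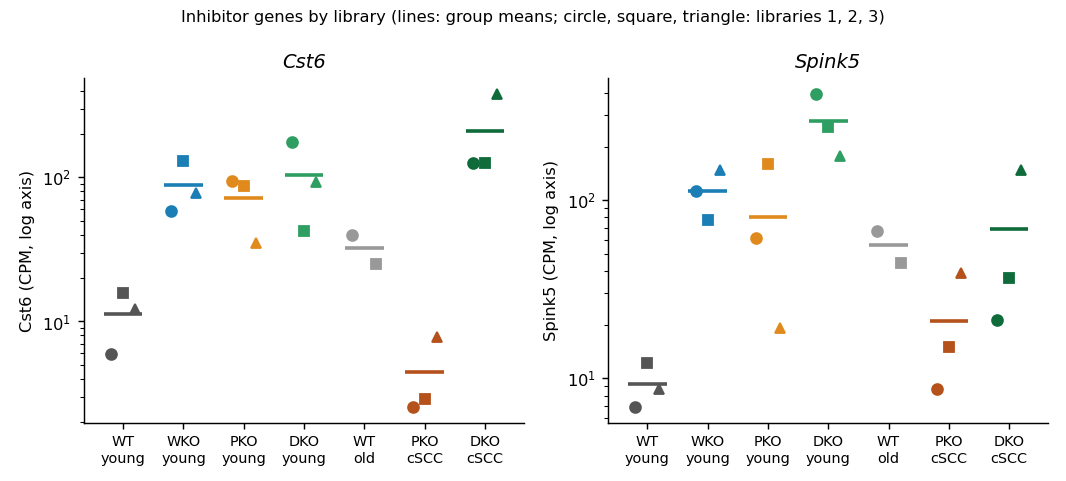
Level of Cst6 (left) and Spink5 (right) in each of the 20 libraries, in CPM on a log axis, by group; lines are group means and symbols mark libraries 1, 2 and 3. Cst6 lies at 2.54 to 7.85 CPM in PKO cSCC and at 125 to 379 CPM in DKO cSCC, and Spink5 is highest in DKO young, at 177.5 to 395 CPM.

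Loss of Wwox alone in young epidermis went with more RNA of both inhibitor genes. By edgeR's quasi-likelihood test, Cst6 rose by 2.96 on the log2 scale (SE 0.60, adjusted p = 0.0140) and Spink5 by 3.58 (SE 0.69, adjusted p = 0.0128) in WKO against WT young, each in 3 of 3 libraries. These were 2 of the 8 genes, against 21.4% of the 16627 genes tested, so the share was near the background. In DKO against WT young 4 of the 8 rose and none fell, against 27.8% of all genes: Cst6 by 3.22 (SE 0.61, adjusted p = 0.00766), Spink5 by 4.92 (SE 0.73, adjusted p = 0.00614), Tgm1 by 2.06 (SE 0.46, adjusted p = 0.0117) and Tgm5 by 2.81 (SE 0.61, adjusted p = 0.0108). The median log2 fold change of the 8 genes was 1.06 in DKO and 0.39 in WKO, beside -0.04 and -0.03 over all genes.

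In PKO against WT young none of the 8 passed, with 0.00601% of all genes called (1 gene; 4174 at an unadjusted p under 0.05, and 2174 by DESeq2). Cst6 was 2.66 higher on the log2 scale (SE 0.60) and Spink5 3.11 higher (SE 0.67), both with an adjusted p of 0.0539; by DESeq2 the adjusted p values were 0.000294 and 8.87e-05. Without the library labelled PKO young 3 the adjusted p was 0.00760 for Cst6 and 0.00150 for Spink5, and 2998 genes were called. All 3 comparisons use the same WT young libraries, which hold few keratinocyte transcripts. When fold changes were scaled to the basal keratinocyte markers, an alternative chosen after seeing the data, Cst6 differed by 0.05 in WKO (adjusted p = 0.942) and by 0.81 in DKO (adjusted p = 0.220) against WT young, and Spink5 by 0.74 in WKO (adjusted p = 0.247); Spink5 in DKO still passed, at 2.45 (adjusted p = 0.00664). In these bulk samples, fewer cells of a type and less RNA per cell cannot be told apart.

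Levels per marker were also computed after seeing the data. Per 1000 CPM of basal markers, Cst6 was 3.72 to 7.62 CPM in WT young and 4.60 to 6.60 in WKO young, ranges that overlap. Spink5 was 3.15 to 5.94 in WT young, 3.91 to 9.69 in WKO young and 4.15 to 11.6 in PKO young, but 14.5 to 37.0 in DKO young. Set instead against 8 markers of differentiated keratinocytes (among them Krt1, Krt10 and Flg), Spink5 was 12.5 to 15.3 CPM per 1000 in WT young and 18.6 to 27.8 in DKO young. For Spink5, DKO young thus lay above WT young by both sets of markers. The other genes called higher in DKO young lay below WT young by the differentiated markers. Per 1000 CPM of these, Cst6 was at least 13.1 CPM in WT young and at most 12.4 in DKO young. Tgm1 was at least 4.51 CPM in WT young and at most 1.93 in DKO young. Tgm5 was at least 2.82 CPM in WT young and at most 2.196 in DKO young. Cst6 in WKO young, at 6.62 to 18.8 CPM by that set, overlapped WT young.

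By edgeR, none of the 8 genes passed between DKO young and either single knockout. Of all genes, edgeR called 0% in DKO against PKO young (0 genes; 2742 at an unadjusted p under 0.05 and 182 by DESeq2) and 0.00601% in DKO against WKO young (1 gene; 2275 and 500). Spink5 was 1.81 higher in DKO than in PKO young (SE 0.64, adjusted p = 0.274) and Tgm1 1.26 higher (SE 0.44, adjusted p = 0.274). Without the library labelled PKO young 2 that Spink5 difference was 2.84, with an adjusted p of 0.0430. Against WKO young, Tgm1 was 1.94 higher (SE 0.46, adjusted p = 0.134, and 0.00327 by DESeq2). In the same comparison Spink5 was 1.34 higher (SE 0.63, adjusted p = 0.378) and Tgm5 1.31 higher (SE 0.57, adjusted p = 0.355). Tgm3 differed there by -1.04 (SE 0.37, adjusted p = 0.279). Whether losing both genes departs from the sum of losing each was tested as an interaction, in which edgeR called 0% of genes (0 genes; 3382 at an unadjusted p under 0.05 and 1111 by DESeq2). Cst6 had an interaction of -2.40 (SE 0.80, adjusted p = 0.150; 0.0488 by DESeq2), with means of 88.8 ± 37.1 CPM in WKO, 72.1 ± 32.3 in PKO and 104 ± 67.1 in DKO young (SD, n = 3 each). Spink5 had -1.77 (SE 0.88, adjusted p = 0.286; -0.75 without the library labelled PKO young 2). Lgmn had 1.24 (SE 0.80, adjusted p = 0.405), which turned to -0.18 without WT young 1. Tgm1 had 1.14 (SE 0.63, adjusted p = 0.329; 0.56 without DKO young 1). Scaled to basal markers the Cst6 interaction was 0.12 and that of Spink5 0.98.

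The carcinomas parted on Cst6. Against young epidermis of the same genotype, Cst6 fell by 4.01 on the log2 scale in PKO cSCC (SE 0.68, adjusted p = 0.00407), and in DKO cSCC it was 1.01 higher (SE 0.60, adjusted p = 0.320). In PKO cSCC 2 of the 8 genes passed, 1 lower (Cst6) and 1 higher (Tgm3), against 11.5% of 18164 genes; in DKO cSCC 1 of the 8 passed (Tgm3, higher), against 7.3%. Against old WT epidermis no member passed in either tumour by edgeR, which called 0.0121% of 16526 genes in PKO cSCC (2 genes; 4581 at an unadjusted p under 0.05) and 0% in DKO cSCC (0 genes; 2402 at an unadjusted p under 0.05 and 744 by DESeq2). There Cst6 was -2.78 in PKO cSCC (SE 0.65, adjusted p = 0.0686) and 2.71 in DKO cSCC (SE 0.71, adjusted p = 0.220), and its old WT libraries overlapped neither tumour group. By DESeq2 the adjusted p was 0.00111 and 0.0059. Of the 4 libraries that go against their labels, only the library labelled DKO cSCC 3 is in this fit. Without it, the adjusted p by edgeR for PKO cSCC against old WT was 0.0451. These comparisons share the carcinoma libraries with the contrast that chose Cst6, so they are not independent of that choice.

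Keratinocyte markers were set beside Cst6 in the tumours, and their part in its levels was not tested. Basal markers came to 9252 to 29407 CPM in PKO cSCC and 14740 to 25793 CPM in DKO cSCC, ranges that overlap. Per 1000 CPM of basal markers, Cst6 was 0.206 to 0.313 CPM in PKO cSCC, below the range of each other group, and 4.84 to 25.7 in DKO cSCC; the other 5 groups lay between 3.59 and 16.5. Differentiated markers overlapped between the tumour groups too, at 216 to 1892 CPM in PKO cSCC and at 491, 2614 and 14375 CPM in DKO cSCC 1, 2 and 3. Cst6 per 1000 CPM of those markers was 3.04 to 13.4 in PKO cSCC and 26.4 to 258 in DKO cSCC, which did not overlap. As Cst6 was chosen on these libraries, these ratios are descriptions. The DKO cSCC library lowest in Cst6 per differentiated markers was the library labelled DKO cSCC 3, which held the most differentiated markers of the tumours. The other 2 DKO cSCC libraries had 127 and 125 CPM of Cst6.

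**Figure D2:**
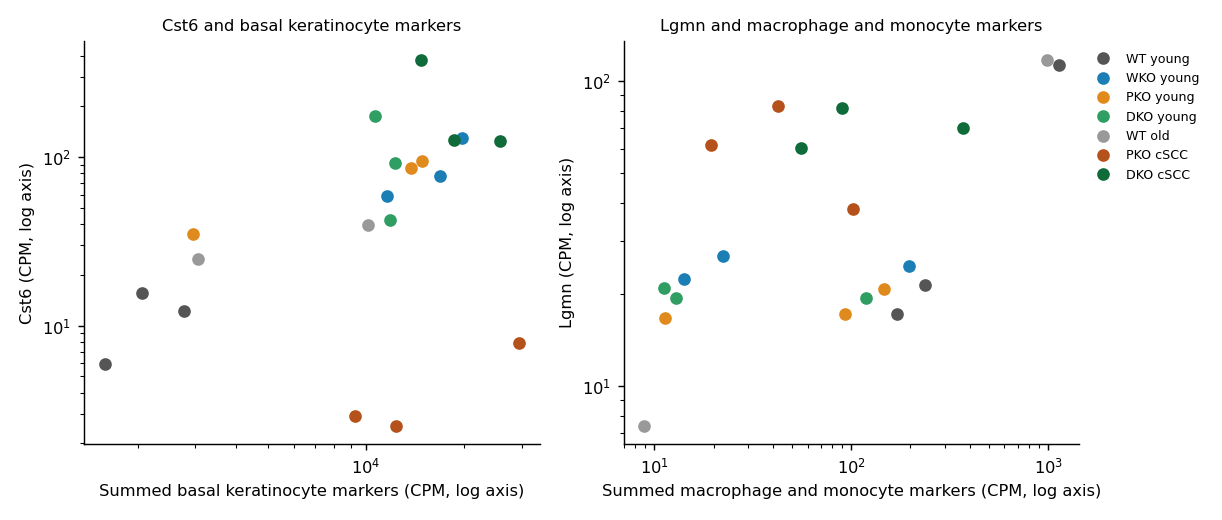
Cst6 against summed basal keratinocyte markers (left) and Lgmn against summed macrophage and monocyte markers (right), 1 point per library coloured by group, both axes in CPM on log scales. PKO cSCC lies low in Cst6 at 9252 CPM or more of basal markers, and the 2 libraries highest in Lgmn (WT young 1 and old WT 2) are the 2 highest in macrophage markers.

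Spink5 did not part the tumours. It was -1.94 in PKO cSCC against PKO young (SE 0.76, adjusted p = 0.104) and -2.04 in DKO cSCC against DKO young (SE 0.76, adjusted p = 0.109), with adjusted p values of 0.0418 and 0.0349 by DESeq2. Without the library labelled DKO cSCC 3 the latter was -3.24, with an adjusted p of 0.0234. Against old WT, Spink5 was -1.33 in PKO cSCC (SE 0.84, adjusted p = 0.330). Per 1000 CPM of differentiated markers it was 10.4 to 69.5 CPM in PKO cSCC and 10.3 to 43.5 in DKO cSCC, so the 2 tumour groups overlapped. Across the 20 libraries, log2(CPM + 1) of Spink5 and of the summed differentiated markers had a Pearson r of 0.92, against 0.71 for Cst6; Cst6 and Spink5 had an r of 0.72 with each other. These correlations are descriptions over libraries that share groups and tissue.

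The 5 genes whose pattern was most like Cst6 over the 20 libraries, among 10487 with a mean of at least 5 CPM, were Psapl1 (r = 0.86), Calml3 (0.86), Sdr16c5 (0.85), Tprg (0.82) and Defb6 (0.82). Calml3, a calmodulin-like protein of keratinocytes, is itself among the differentiated keratinocyte markers, and Defb6 encodes a beta-defensin. Its level was 19.0 ± 5.02 CPM in WT young epidermis and 96.3 ± 22.6 in WKO young, and 5.82 ± 0.835 and 82.3 ± 66.2 CPM in PKO and DKO cSCC (SD, n = 3 each). Tprg, known as a p63-regulated gene, was 1.52 ± 0.832 CPM in WT young, 13.8 ± 1.60 in WKO young, 0.646 ± 0.0627 in PKO cSCC and 8.89 ± 7.39 in DKO cSCC (n = 3 each). That these levels run with Cst6 follows from how the genes were picked.

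The proteases that cystatin M/E inhibits followed another pattern. Ctsl, which encodes cathepsin L, was 110 (library 1), 26.4 and 36.9 CPM in WT young and 36.2, 46.4 and 38.8 in WKO young. PKO young had 57.5, 43.0 and 50.1 CPM and DKO young 30.3, 26.2 and 51.3. Old WT libraries 1 and 2 were far apart, at 24.3 and 314 CPM, the lowest and the highest of all 20. PKO cSCC had 44.5, 168 and 78.9 CPM and DKO cSCC 189.5, 92.0 and 58.4, so the 2 tumour groups overlapped.

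Lgmn, which encodes the asparaginyl endopeptidase legumain, split in the same libraries. It was 113, 17.3 and 21.4 CPM in WT young, and the 9 knockout libraries of young epidermis held a narrow band: 24.7, 26.8 and 22.5 in WKO, 16.7, 17.2 and 20.8 in PKO, and 21.0, 19.5 and 19.5 in DKO. Old WT had 7.40 and 118 CPM, again the extremes of the series. PKO cSCC had 38.2, 83.1 and 61.7 CPM and DKO cSCC 60.6, 81.6 and 70.4 CPM. All 6 tumours lay above all 9 young knockout libraries. Ctsl and Lgmn had a Pearson r of 0.84 over the 20 libraries, the highest of any pair among the 8 genes.

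Neither Ctsl nor Lgmn passed in any comparison as fitted. Lgmn was 1.77 higher in PKO cSCC than in PKO young (SE 0.73, adjusted p = 0.124) and 1.82 higher in DKO cSCC than in DKO young (SE 0.73, adjusted p = 0.136), with no overlap between the groups in either. Ctsl was 1.65 higher in DKO cSCC than in DKO young (SE 0.74, adjusted p = 0.177). Lgmn was -1.05 in WKO (SE 0.57, adjusted p = 0.195), -1.50 in PKO (SE 0.57, adjusted p = 0.139) and -1.32 in DKO (SE 0.57, adjusted p = 0.108) against WT young. These values rest on WT young 1: without it they were 0.35, -0.073 and 0.094. Without WT young 2 the DKO value was -1.72, with an adjusted p of 0.0457. Scaled to basal keratinocyte markers, Lgmn was -4.18 in WKO (adjusted p = 0.00319), -3.22 in PKO (adjusted p = 0.0858) and -4.07 in DKO (adjusted p = 0.00664). Ctsl in old against young WT was 1.58 (SE 0.79, adjusted p = 0.259) and -1.25 without old WT 2.

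The libraries at the extremes of Lgmn were also at the extremes of macrophage and monocyte markers. Of that list all 10 genes were matched (among them Csf1r, Adgre1 and C1qa), and they summed to 1131 CPM in WT young 1 and 983 in old WT 2, the 2 libraries highest in Lgmn, against 8.90 CPM in old WT 1, the lowest in Lgmn. They summed to 171 and 237 CPM in the other WT young libraries, to 11.1 to 197 in young knockout epidermis, with up to 4 of the 10 genes at 0, and to 19.3 to 103 in PKO cSCC. In DKO cSCC they were 55.6, 90.0 and 368 CPM, with none at 0. In young knockout epidermis Lgmn stayed at 16.7 to 26.8 CPM over that range of markers, and WT young 2, with 171 CPM of them, had 17.3. Lgmn in the tumours was 38.2 to 83.1 CPM in libraries with fewer of these markers than WT young 2 and 3, apart from the library labelled DKO cSCC 3. Over all 20 libraries the r of Lgmn with the summed markers was 0.54. The part of macrophages in the protease levels was not tested.

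St14, the gene for matriptase, was the steadiest of the 8, with a highest library only 3.54 times the lowest. It was 45.9, 99.1 and 90.0 CPM in WT young, 83.7, 77.9 and 61.9 in WKO young, 83.4, 66.8 and 103 in PKO young and 85.5, 88.4 and 65.9 in DKO young. Old WT had 63.8 and 156 CPM, PKO cSCC 55.6, 67.8 and 59.1, and DKO cSCC 44.1, 61.9 and 63.5. Groups next to each other in order of mean overlapped throughout, but DKO cSCC lay below DKO young and below old WT without overlap. In no comparison did St14 pass or differ by a log2 fold change of 1. The steadiness is that of CPM. Per 1000 CPM of basal markers, St14 was 29.0 to 48.2 CPM in WT young, 3.68 to 7.22 in WKO young and 5.39 to 8.01 in DKO young. The part of keratinocyte content in St14 levels was not tested.

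**Figure D3:**
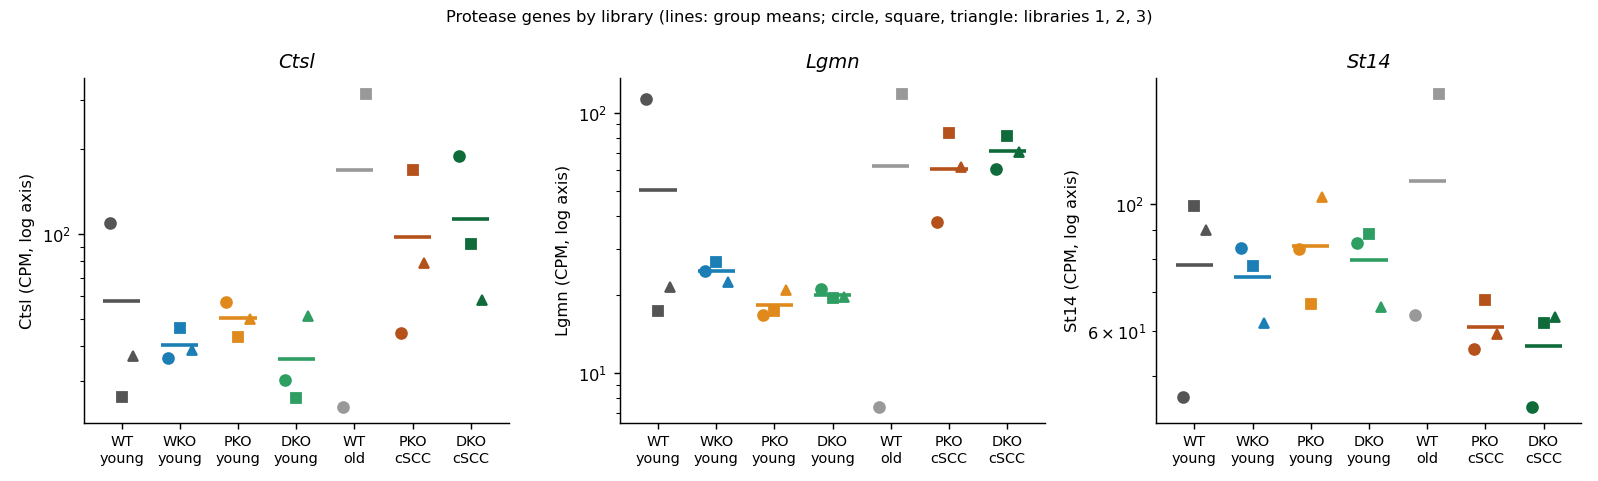
Level of Ctsl, Lgmn and St14 in each of the 20 libraries, in CPM on a log axis, by group; lines are group means and symbols mark libraries 1, 2 and 3. WT young 1 and old WT 2 stand at 113 and 118 CPM for Lgmn, above all young knockout libraries, and St14 stays between 44.1 and 156 CPM.

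Of the transglutaminases, Tgm3 passed in both tumour comparisons with young epidermis of the same genotype, but in neither with old WT. It encodes the epidermal transglutaminase that is made as a proenzyme and activated by cleavage. In young epidermis it was 6.83, 24.0 and 17.8 CPM in WT, 20.1, 30.2 and 27.5 in WKO, 13.8, 14.2 and 12.4 in PKO and 13.6, 12.9 and 10.3 in DKO. Old WT had 6.24 and 6.88 CPM, the first below every young library and the second above WT young 1 alone. PKO cSCC had 45.9, 87.3 and 461 CPM, all above every normal library. DKO cSCC had 130.1 and 199.6 CPM in libraries 1 and 2 but 15.4 in the library labelled DKO cSCC 3, which lay among the normal libraries. That library also had 14375 CPM of differentiated keratinocyte markers, against at most 2614 in the other 5 tumours.

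Tgm3 rose by 3.89 on the log2 scale in PKO cSCC against PKO young (SE 0.85, adjusted p = 0.0117), in 3 of 3 tumours, and by 3.24 in DKO cSCC against DKO young (SE 0.83, adjusted p = 0.0284), where all 3 tumours also lay above the DKO young libraries. Neither call held in every alternative. The first had the same log2 fold change of 3.89 without the 4 libraries that go against their labels. That removal leaves only PKO young 1 in its group, so no test is given for it. The fold change was 2.33 without PKO cSCC 3. The second had adjusted p values of 0.0687 to 0.113 when any of DKO young 1, 2 or 3 or DKO cSCC 1 or 2 was left out. Scaled to basal keratinocyte markers the values were 2.23 (adjusted p = 0.0942) and 2.30 (adjusted p = 0.214). Against old WT epidermis Tgm3 was 5.00 higher in PKO cSCC (SE 1.44, adjusted p = 0.0923) and 4.20 higher in DKO cSCC (SE 1.38, adjusted p = 0.269), without overlap; by DESeq2 the adjusted p values were 0.000135 and 0.00432. Tgm3 was -1.28 in old against young WT (SE 0.41, adjusted p = 0.104; 0.0362 by DESeq2).

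Tgm1, which encodes the membrane-anchored transglutaminase of keratinocytes that is mutated in lamellar ichthyosis, was 2.98, 4.35 and 4.69 CPM in WT young, 4.05, 4.81 and 4.35 in WKO young and 7.16, 9.98 and 4.11 in PKO young. DKO young had 27.4, 14.1 and 8.07 CPM, all above every WT and WKO young library. The call for Tgm1 in DKO against WT young rested on DKO young 1: without it the log2 fold change was 1.50, with an adjusted p of 0.0501. Scaled to basal markers it was -0.36 (adjusted p = 0.606). Old WT had 6.07 and 11.3 CPM, PKO cSCC 3.60, 6.73 and 25.2, and DKO cSCC 4.27, 13.2 and 12.5. Both tumour groups overlapped old WT and each other. In old against young WT Tgm1 was 1.14 higher (SE 0.49, adjusted p = 0.196).

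Tgm5, another transglutaminase of the upper epidermis, whose loss causes acral peeling skin, was 3.47, 2.72 and 2.26 CPM in WT young and 5.81, 11.5 and 6.95 in WKO young. It was 16.0, 10.5 and 4.41 CPM in PKO young and 31.2, 21.0 and 6.53 in DKO young. As for Cst6, all 9 young knockout libraries lay above the 3 WT young ones. Tgm5 was 1.50 higher in WKO (SE 0.58, adjusted p = 0.0868) and 1.85 higher in PKO (SE 0.59, adjusted p = 0.0931) against WT young, and passed in DKO; by DESeq2 the first 2 had adjusted p values of 0.0492 and 0.0226. Scaled to basal markers it was -1.52 in WKO, -0.37 in PKO and 0.28 in DKO (adjusted p = 0.706). Old WT had 6.74 and 4.86 CPM, PKO cSCC 60.0, 2.83 and 8.96, and DKO cSCC 18.5, 10.8 and 27.5. The 60.0 CPM of PKO cSCC 1, the highest of the series, set the log2 fold change of 1.27 against PKO young (SE 0.82, adjusted p = 0.324), which was -0.80 without that library. Tgm5 was 2.12 higher in PKO cSCC (SE 1.15, adjusted p = 0.262) and 1.73 higher in DKO cSCC (SE 1.13, adjusted p = 0.490) than in old WT; the former was 0.038 without PKO cSCC 1. Its level ran with the summed inner root sheath and hair follicle markers, with a Pearson r of 0.74 over the 20 libraries, and those markers ran from 890 to 6432 CPM in PKO cSCC. Most of that sum in PKO cSCC 1 was Krt17, at 6088 CPM, a keratin also known from stressed epidermis. The inner root sheath keratins Krt25 and Krt71 were 0.919 and 0.707 CPM there, against 220 and 252 in WT young 2, which had 2.72 CPM of Tgm5. The part of hair follicle cells was not tested.

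**Figure D4:**
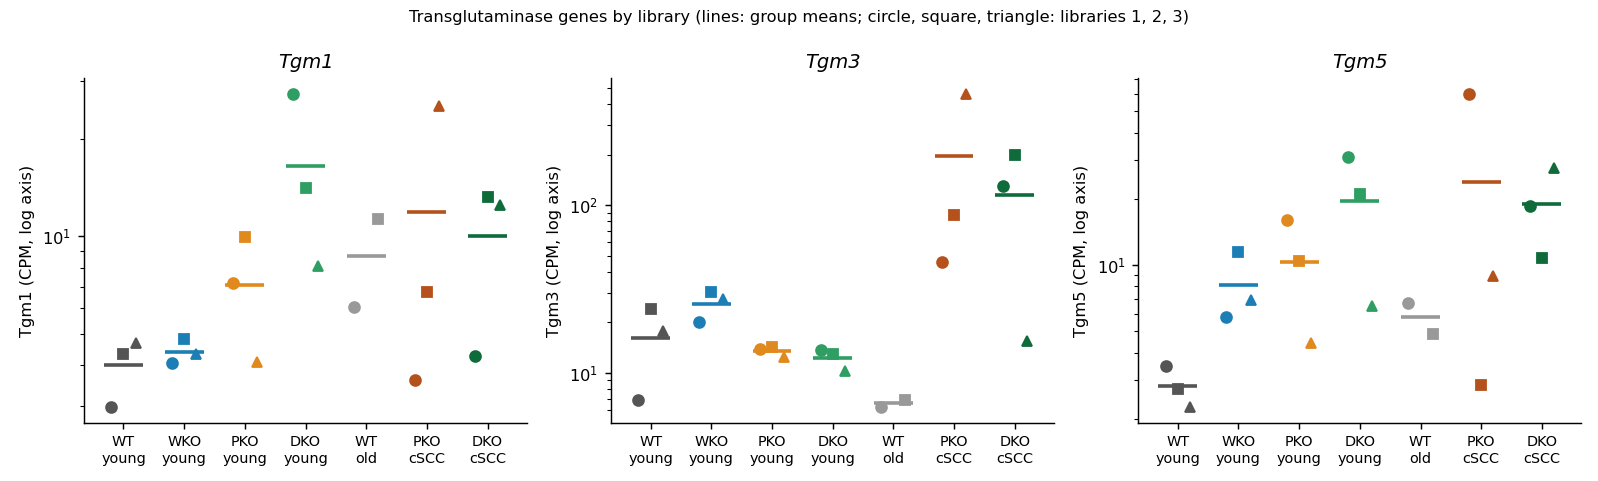
Level of Tgm1, Tgm3 and Tgm5 in each of the 20 libraries, in CPM on a log axis, by group; lines are group means and symbols mark libraries 1, 2 and 3. Tgm3 lies at 45.9 to 461 CPM in PKO cSCC and at 15.4 to 199.6 CPM in DKO cSCC, against at most 30.2 CPM in normal epidermis.

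Age was compared in wild-type epidermis alone, where 1.99% of 17622 genes were called and none of the 8. Spink5 was 2.60 higher in old than in young WT (SE 0.67, adjusted p = 0.0630; 0.00312 by DESeq2), Cst6 1.55 higher (SE 0.60, adjusted p = 0.161) and Tgm5 1.06 higher (SE 0.61, adjusted p = 0.323). For these 3 genes both old libraries lay above all 3 young ones. Old WT 1 held 10177 CPM of basal markers, against 3060 in old WT 2 and 1584 to 2777 in WT young. Per 1000 CPM of basal markers, Cst6 was 3.91 to 8.17 CPM in old WT, which overlaps WT young, and Spink5 6.59 to 14.5, which does not. Per 1000 CPM of differentiated markers, Spink5 was 8.31 to 15.5 CPM in old WT, which overlaps the 12.5 to 15.3 of WT young. Cst6 by that set was 4.94 to 8.71 in old WT, below the 13.1 to 17.4 of WT young. The part of keratinocyte content in these differences was not tested.

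**Figure D5:**
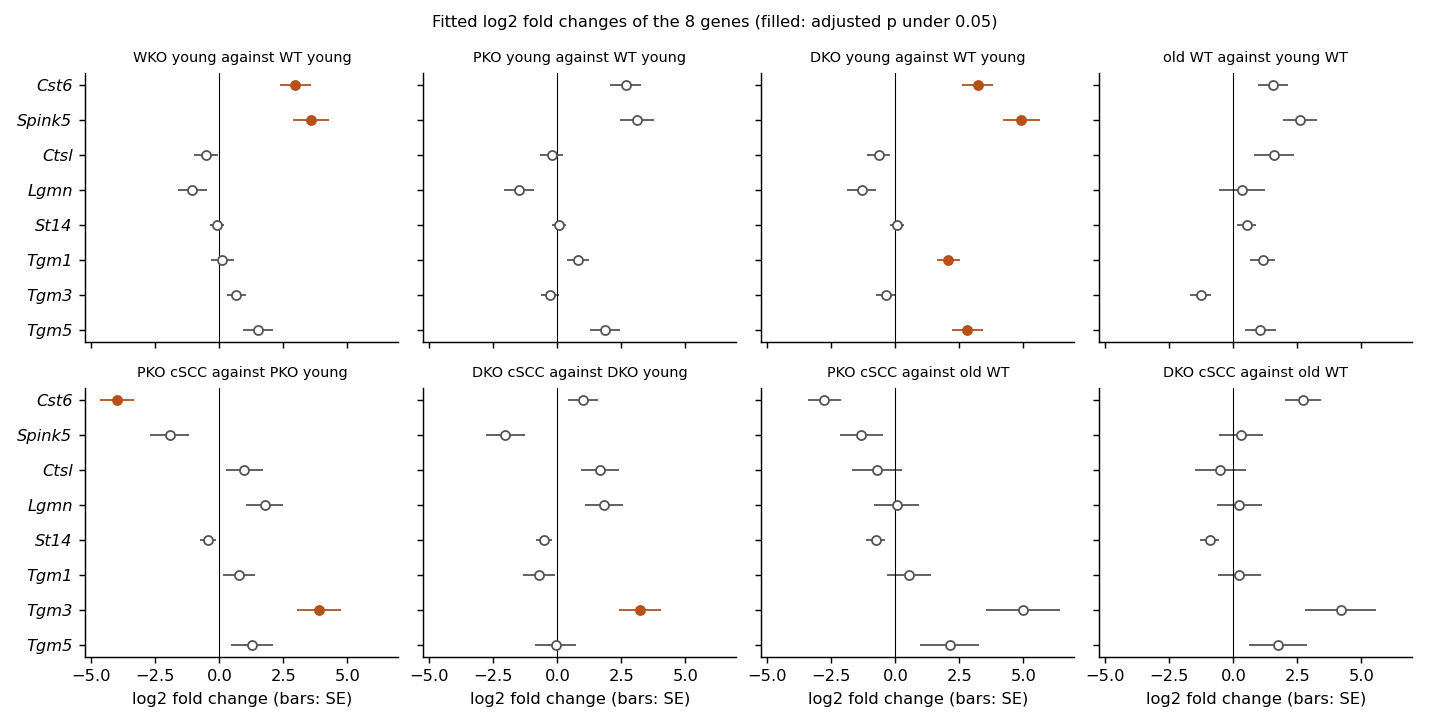
Fitted log2 fold change of the 8 genes in 8 comparisons, with bars for the SE; filled points have an adjusted p under 0.05 by edgeR's quasi-likelihood test. Cst6 and Spink5 are filled in WKO and DKO against WT young, Tgm3 in both carcinomas against young epidermis of the same genotype, and Cst6 is at -4.01 in PKO cSCC and at 1.01 in DKO cSCC.

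The wider pathway was read from 5 lists. Of 19 genes of the matriptase and LEKTI network 16 were tested in young epidermis, and 8 rose and none fell in WKO against WT young, 15 rose and none fell in DKO, and none passed in PKO, where all 16 were positive. Over all genes 21.4% were called in WKO, 27.8% in DKO and 0.00601% in PKO. Basal keratinocyte markers, which move with this list of keratinocyte genes, came to 1584 to 2777 CPM in WT young against 11587 to 19714 in WKO and 10663 to 12231 in DKO young, and their part was not tested. The list's median log2 fold change was 1.80 in WKO and 2.82 in DKO. Spint2, an inhibitor of matriptase, rose from 43.9 ± 15.9 to 144 ± 13.4 CPM in WKO (adjusted p = 0.0126). F2rl1, the protease-activated receptor that serine proteases switch on, rose from 14.1 ± 5.12 to 72.3 ± 9.39 CPM in WKO and to 103 ± 11.8 in DKO. The desmosomal cadherin gene Dsg1b, whose product kallikreins cut, rose from 23.2 ± 6.69 to 157 ± 12.9 and 242 ± 56.3 CPM (SD, n = 3 each). Dsg1a and Dsg1b are close copies, so the split of reads between them is uncertain. In old against young WT 3 of the 16 rose (Prss8, Tmprss13 and Spint2), against 1.99% of all genes, and Prss8, which encodes prostasin, a partner of matriptase, went from 1.78 ± 0.868 (n = 3) to 13.6 ± 8.23 CPM (n = 2).

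Of 18 genes of this network tested in the tumours, Klk10 rose and Dsg1a fell in PKO cSCC against PKO young, where 11.5% of all genes were called. F2rl1 fell in DKO cSCC against DKO young, where 7.3% were called, so both shares were near the background. Klk10, a kallikrein-related peptidase, was 16.1 ± 3.27 against 2.81 ± 2.64 CPM (n = 3 each, adjusted p = 0.0136). F2rl1 was 29.9 ± 13.1 against 103 ± 11.8 CPM (n = 3 each, adjusted p = 0.0480). Median log2 fold changes of the list were -0.87 and -0.74.

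The proteins that transglutaminases cross-link were counted over 26 listed symbols, 22 of which were tested in young epidermis. In WKO against WT young 7 rose and 1 fell, and in DKO 10 rose and 1 fell, with medians of 0.84 and 2.60, against 21.4% and 27.8% of all genes called. Evpl, which encodes envoplakin, a scaffold of the early envelope, rose from 102 ± 34.8 to 535 ± 35.7 CPM in WKO and to 764 ± 133 in DKO. Sprr1a, a small proline-rich envelope protein, rose from 6.41 ± 1.35 to 311 ± 154 CPM in DKO (n = 3 each, adjusted p = 0.00619). Of 24 tested in the tumours, 2 rose and 5 fell in PKO cSCC against PKO young and 1 fell in DKO cSCC against DKO young, against 11.5% and 7.3% of all genes. Sprr1a fell in both, from 106 ± 121 to 5.33 ± 3.37 CPM in PKO and from 311 ± 154 to 43.8 ± 29.5 CPM in DKO. The SPRR genes include near-identical copies, so the split of reads among them is uncertain. The WT young libraries that set these young contrasts had the fewest differentiated keratinocyte markers of normal epidermis, 451 to 965 CPM against 1053 to 14183 in the other normal libraries, and the part of this was not tested.

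Among 12 cathepsin genes tested beside Ctsl, 1 rose and 2 fell in WKO and 1 rose and 4 fell in DKO against WT young, against 21.4% and 27.8% of all genes called. Ctsf, a lysosomal cysteine protease, rose from 11.5 ± 0.554 to 26.5 ± 1.44 CPM in WKO (n = 3 each, adjusted p = 0.0126). Ctse, an aspartic protease, fell from 29.5 ± 13.6 to 0.858 ± 0.199 CPM in WKO and to 1.44 ± 1.67 in DKO. Ctsw, which is known from T and natural killer cells, was 76.3 ± 2.77 CPM in WT young and 4.98 ± 2.35 in DKO young (adjusted p = 0.0385), where T cell markers were 1587 to 2048 and 84.9 to 294 CPM. Ctsw and Ctse also fell in PKO cSCC against PKO young.

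Other transglutaminase genes moved in opposite directions. Tgm7 rose from 0.521 ± 0.119 to 7.27 ± 1.62 CPM in WKO and to 9.37 ± 1.12 in DKO young (n = 3 each), and fell to 0.284 ± 0.302 CPM in DKO cSCC against DKO young (adjusted p = 0.0127). Tgm7 was also higher in old WT than in WT young, at 12.9 ± 14.5 CPM (n = 2, adjusted p = 0.0398 by edgeR), where 1.99% of all genes were called. Tgm6 fell from 11.1 ± 6.91 CPM in WT young to 0.621 ± 0.627 in WKO and 0.406 ± 0.185 in DKO young. Of 4 such genes tested in young epidermis, 1 rose and 1 fell in both WKO and DKO, against 21.4% and 27.8% of all genes called. Of 5 such genes tested in the tumours, Tgm7 and Tgm6 fell in PKO cSCC against PKO young, against 11.5% of all genes called.

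Several other cystatin genes rose in the tumours. Of 9 tested, 5 rose and 1 fell in PKO cSCC against PKO young and 4 rose and none fell in DKO cSCC against DKO young, with medians of 5.09 and 5.68, against 11.5% and 7.3% of all genes called. The gene that fell was Cst7, known from lymphoid cells, at 0.0629 ± 0.0594 CPM in PKO cSCC against 18.4 ± 21.0 in PKO young (adjusted p = 0.00887), where T cell markers were 13.4 to 48.4 and 258 to 3660 CPM. BC100530, a stefin A gene, was 207 ± 110 CPM in PKO cSCC against 0.633 ± 0.505 in PKO young (adjusted p = 0.00349) and 240 ± 203 in DKO cSCC against 0.876 ± 0.378 in DKO young (adjusted p = 0.00439). Stfa3, another of that cluster, was 120 ± 92.9 and 135 ± 143 CPM in PKO and DKO cSCC, against 2.52 ± 1.57 in DKO young (n = 3 each). These genes are near-identical copies, so the split of reads among them is uncertain. BC100530, Stfa3 and BC117090 rose in both kinds of carcinoma. In young epidermis, 6 were tested, against the same 21.4% and 27.8% of all genes: Csta1 fell in WKO, from 3.83 ± 1.58 to 0.766 ± 0.264 CPM, and in DKO, and Cstb, the ubiquitous cystatin B, rose in DKO, from 16.7 ± 5.06 to 45.9 ± 9.37 CPM (n = 3 each).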

How the data were processed

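Per the submitters' processing notes, which give no roles, the tools were Salmon 0.13.1, DESeq2 1.28.1, Trim Galore 0.4.1 and FastQC 0.11.5, and the build was mm39. Per the labels' protocols, 5 ng of RNA from sorted cells went into a low-input kit for stranded total RNA; whether its molecular identifiers were counted is not stated in those notes. The authors deposited estimated counts (expected counts), already whole numbers, for 51123 Ensembl identifiers in 20 libraries; a symbol was found for 48246 in an annotation of another build, used for names only. Promoter windows come from RefSeq on GRCm38.p6.

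The counts were tested with edgeR 4.0.16 (R 4.3.3): TMM scaling (trimmed mean of M-values), the default filterByExpr, quasi-likelihood F test, Benjamini-Hochberg adjustment over all genes tested, threshold 0.05. Young groups shared a fit of 12 libraries, old against young WT used 14, the tumours with old WT 8, and tumours against young epidermis all 20. Levels are CPM after TMM scaling of all 20 libraries. SE is that of the log2 fold change. Depth of 11930153 to 17199262 counts limits low genes: 36 counts was the lowest member value. The edgeR step was run on simulated counts with known changes, in which all genes shared a common dispersion. That run held no libraries that stand apart, so it does not cover them.

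The 8 genes, 5 pathway lists and 11 marker lists were chosen with earlier results of these data known. A fold change is printed for a member with an adjusted p under 0.05 or an absolute log2 fold change of at least 1, and for a pathway list at most 4 genes of smallest p are named. Alternatives were a replicate block, RLE scaling, no low-count filter, DESeq2 1.42.0, all libraries in the fit, removal of the 4 libraries that go against their labels and each library left out in turn; the TATA box search and the scaling to basal keratinocyte markers were chosen after seeing the data. Replicate numbers did not pair the libraries: in young epidermis, deviations of 18 same-numbered pairs had r from -0.57 to 0.48.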

Additional observations from a re-analysis of the deposited data

Results flagged for a closer look

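Cst6 lay on opposite sides of old WT epidermis in the 2 kinds of carcinoma, with a log2 fold change of -2.78 in PKO cSCC and 2.71 in DKO cSCC. Every PKO cSCC library was below both old WT libraries and every DKO cSCC library above both. The difference between the 2 effects was not tested, since it is the contrast by which Cst6 was chosen.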

How the results depend on the processing

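Over the member fold changes printed, the replicate block and RLE scaling each kept 46 of 46 on their side of the threshold and in their direction; DESeq2 kept 28 and brought 14 past the threshold, and gave no adjusted p for the other 4, all of Lgmn in young epidermis; leaving out 1 library kept 270 of 287, with 6 lost, 6 gained and 5 reversed. Scaling to basal markers, chosen after seeing the data, kept 30 of 46, with 6 lost, 3 gained and 7 reversed. The 6 lost were Cst6 and Spink5 in WKO and Cst6 and Tgm5 in DKO against WT young, and Tgm3 in both carcinomas against young epidermis. The cause of these changes and of those below was not tested, apart from those named by a library left out. With a replicate block, genes called were 2355 in WKO against WT young, 0 in old against young WT, 0 in PKO cSCC against old WT and 2 in DKO against PKO cSCC (1 without the block). With all 20 libraries in the fit they were 2199 in WKO, 3 in PKO, 0 in DKO against WKO, 154 in old against young WT, 3876 and 788 in PKO and DKO cSCC against old WT, and 2 in DKO against PKO cSCC. RLE scaling gave 3 in PKO against WT young and 2 in DKO against WKO. No low-count filter gave 990 in PKO, 42 in DKO against WKO, 13 in the interaction, 1068 in old against young WT, 2285 and 853 in PKO and DKO cSCC against old WT and 375 in DKO against PKO cSCC. DESeq2 gave 2174 in PKO, 182 in DKO against PKO young, 500 in DKO against WKO, 1111 in the interaction, 2046 in old against young WT, 2588 and 744 in PKO and DKO cSCC against old WT, 3350 and 2608 in PKO and DKO cSCC against young epidermis and 235 in DKO against PKO cSCC. Without the 4 libraries that go against their labels there were 1291 in PKO, 2 in DKO against PKO young, 229 in DKO against WKO, 452 in the interaction, 1128 in old against young WT, 566 in PKO cSCC against old WT and 336 in PKO cSCC against PKO young.

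Leaving out 1 library gave 893 to 3513 genes in WKO against WT young (all libraries 3563; lowest without WKO young 2, and 965 to 1228 without WKO young 3, WT young 1 or WT young 2), 1 to 2998 in PKO (highest without the library labelled PKO young 3), 1609 to 4045 in DKO (all libraries 4629; lowest without DKO young 1, and 2726 to 2959 without WT young 1 or 2 or DKO young 2), 0 to 403 in DKO against PKO young (highest without the library labelled PKO young 2), 1 to 6 in DKO against WKO, 0 to 1199 in the interaction (highest without the library labelled PKO young 3), 0 to 434 in old against young WT (all libraries 351; 0 without any WT young library and 57 without old WT 2), 0 to 67 in PKO cSCC and 0 to 2 in DKO cSCC against old WT, 1144 to 2041 in PKO cSCC against PKO young (all libraries 2087; lowest without the library labelled PKO young 2, and 1221 and 1362 without PKO cSCC 1 and PKO young 1), 265 to 1800 in DKO cSCC against DKO young (all libraries 1326; 265 and 472 without DKO young 1 and 2, 585 and 478 without DKO cSCC 1 and 2), and 0 to 1 in DKO against PKO cSCC. Lgmn ran from -1.46 to 0.35 in WKO, from -1.72 to 0.094 in DKO and from -0.18 to 1.62 in the interaction, turning without WT young 1. Ctsl in old against young WT ran from -1.25 (without old WT 2) to 2.47 (without old WT 1), and Tgm5 in PKO cSCC against PKO young from -0.80 (without PKO cSCC 1) to 1.80. Scaling to basal markers, chosen after seeing the data, turned Tgm5 to -1.52 in WKO, -0.37 in PKO, -0.36 in old against young WT and -0.036 in DKO cSCC against old WT, Tgm1 in DKO to -0.36, and the interactions of Cst6 and Spink5 to 0.12 and 0.98. Counting error is widest for the members with the fewest counts, Cst6 in PKO cSCC and Tgm1 and Tgm5 in WT young.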
